A study of Mus musculus with 2 samples.

Results

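Large arrays of olfactory receptor genes on mouse chromosomes 2, 7 and 9 were examined in chromatin immunoprecipitation sequencing (ChIP-seq) data of primary osteoblasts. The 3 arrays were taken by fixed coordinates, not by a cutoff on read counts, but with earlier results of these data known: chr2:85200001-90300000, chr7:109600001-116000000 and chr9:37400001-40200000. Cut into bins of 10 kb they gave 510, 640 and 280 bins, 1430 in all, which is 0.578% of the 247239 bins of chromosomes 1 to 19. Coordinates are those of the deposited reads and are counted from 1. The build of the reads is not settled by the labels. The series text names mouse reference 8, but reads on chromosome 7 reach position 152524453, which from general knowledge lies beyond the end of that chromosome in that build and within it in mm9.

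The antibody was raised against Tnni2, the inhibitory troponin subunit of fast skeletal muscle. One library came from osteoblasts of mice homozygous for the del175k allele of Tnni2 (the mutant library) and 1 from wild-type littermates (the wild-type library), both of strain 129sv. The series text gives n = 3 animals and does not say how they were combined, and neither age nor an input library was given in the sources used here. With 1 library per genotype no difference below has a replicate check, and no p-value is given. The libraries held 3003795 distinct positions (chromosome, 5′ end and strand) (mutant) and 2920353 (wild type). The autosomal mean bin held 11.8 and 11.4 of them, so a single bin carries a large counting error. Intervals quoted are exact 95% intervals unless another kind is named, and they cover counting error only. DNA reads carry no marker expression, so the osteoblast label could not be checked.

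Olfactory receptors are G protein-coupled receptors that detect odorants, and they form the largest gene family of the mouse. Their coding regions usually lie in a single exon, the genes and many pseudogenes stand in tandem arrays that arose by duplication, and each olfactory sensory neuron expresses 1 allele of 1 gene while the rest are silenced. Such arrays are AT-rich, and their gene copies are known to vary between mouse strains. In the RefSeq gene table of GRCm38.p6, 850 of 1428 olfactory receptor genes (59.5%) were on chromosomes 2, 7 and 9. The largest groups of neighbours less than 1 Mb apart held 293 genes on chromosome 2 and 127 on chromosome 9, and the 2 largest on chromosome 7 held 158 and 80. The longest run with no other gene between ran from Olfr1153 to Olfr1188 on chromosome 2 (38 genes, between Gm13745 and Gm13758). On chromosome 7 it ran from Olfr605 to Olfr67 (29 genes, between Usp17lc and the β-globin gene Hbb-bt), and on chromosome 9 from Olfr148 to Olfr981 (25 genes, between AW551984 and Gm18892). That table has another build than the reads, so it served for names and gene order, and no gene was placed in a bin. The 2 groups on chromosome 7 were more than 1 Mb apart. How much of each interval holds receptor genes was not determined, so the densities below are those of whole intervals.

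Promoters of these genes were poor in GC beside other promoters. The base composition of the whole arrays could not be computed. RefSeq promoters, 250 bases before to 50 bases after the gene start, were matched for 435 of the 658 genes of these groups (437 promoters). Whether transcription begins at these gene starts was not tested. The median GC content of the 437 promoters was 34%, against 52.7% over the 32851 promoters of the table. Here and below, those of the table leave out a whole autosome. The 437 promoters held a mean of 1.16 CG dinucleotides, against 12.4, and 35.2% held none, against 5.43%. The group on chromosome 2 was the poorest in GC, with a median of 32%, and those on chromosomes 7 and 9 had medians of 36.7% and 35.5%. For each group the 150 bases before the start of the gene whose promoter was nearest to that median are shown, 5′ to 3′ on the gene's strand, with CG dinucleotides in capitals (GRCm38.p6, chr2:86806998-86807147 on the minus strand, chr7:104687867-104688016 on the plus strand and chr9:38580094-38580243 on the plus strand).
Olfr141: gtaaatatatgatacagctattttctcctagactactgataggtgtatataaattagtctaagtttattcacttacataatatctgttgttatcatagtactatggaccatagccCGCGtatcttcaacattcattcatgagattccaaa
Olfr661: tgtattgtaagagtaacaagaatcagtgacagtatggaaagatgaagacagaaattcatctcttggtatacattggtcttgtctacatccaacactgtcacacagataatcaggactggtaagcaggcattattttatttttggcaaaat
Olfr912: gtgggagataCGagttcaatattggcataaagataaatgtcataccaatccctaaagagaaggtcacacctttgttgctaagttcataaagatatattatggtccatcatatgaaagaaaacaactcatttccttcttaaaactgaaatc
The stretch of Olfr141 held 2 CG dinucleotides, that of Olfr661 held 0 and that of Olfr912 held 1.

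Duplicated genes can share whole stretches longer than the 36 bp reads. Of the promoters of the 3 groups, 20.1% shared at least 1 run of 36 bases with the promoter of another gene. Over all promoters of the table this share was 20.3%. The mean share of a promoter's 36-base runs found in another gene's promoter was 4.36% in the 3 groups, against 10.7% over the table. Some genes of 1 group had the same 150 bases before their start. The pair of each group that shared most 36-base runs is shown, with the shared bases in capitals. On chromosome 2 the 150 bases before Olfr1506 (GRCm38.p6, chr2:90224472-90224621, minus strand) were the same as those before Olfr1565. On chromosome 7 those before Olfr596 (chr7:103309573-103309722, plus strand) were the same as those before Olfr603, so each is printed once. On chromosome 9, Olfr875 (chr9:37772487-37772636, plus strand) and Olfr876 (chr9:37803739-37803888, plus strand) shared 74 bases.
Olfr1506: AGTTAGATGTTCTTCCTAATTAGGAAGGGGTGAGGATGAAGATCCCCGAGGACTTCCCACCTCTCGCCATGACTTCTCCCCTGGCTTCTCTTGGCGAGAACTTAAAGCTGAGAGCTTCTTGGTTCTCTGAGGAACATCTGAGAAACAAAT
Olfr596: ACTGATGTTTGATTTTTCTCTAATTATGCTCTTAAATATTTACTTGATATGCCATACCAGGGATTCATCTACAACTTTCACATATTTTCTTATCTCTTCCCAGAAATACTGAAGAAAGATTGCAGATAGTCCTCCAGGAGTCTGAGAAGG
Olfr875: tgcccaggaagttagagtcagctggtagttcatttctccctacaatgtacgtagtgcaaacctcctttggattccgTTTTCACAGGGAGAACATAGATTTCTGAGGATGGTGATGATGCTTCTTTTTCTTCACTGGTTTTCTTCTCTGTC
Olfr876: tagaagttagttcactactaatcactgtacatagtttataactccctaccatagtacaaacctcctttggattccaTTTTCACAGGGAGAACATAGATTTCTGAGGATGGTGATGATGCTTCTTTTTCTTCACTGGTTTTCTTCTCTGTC
A read of 36 bases drawn from the capitals could come from either gene of its pair. How the authors' alignment treated such reads is not given in the sources used here, and the part of shared sequence in the densities below was not tested. The motif TCCCNNGGGA, the core of the site of the olfactory factor EBF (Olf1), reads the same on both strands. It stood in 1 of the 437 promoters (0.229%), against 0.904% of all promoters of the table. Only this exact core was searched. The motif is rich in GC and the 437 promoters are poorer in GC than the table, so these shares do not show whether EBF sites are lacking.

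All 3 arrays were sparse in reads in both libraries. The interval on chromosome 2 held 3239 distinct positions in the mutant library, a mean of 6.35 per bin (SD over bins 4.10), and 2771 in the wild-type library, 5.43 per bin (SD 3.66). This is 0.536 times the autosomal mean (95% Poisson interval 0.518 to 0.555) and 0.476 times (0.459 to 0.494). The interval on chromosome 7 held 5377 and 4906 positions, 8.40 and 7.67 per bin (SD 6.23 and 6.0), or 0.710 (0.691 to 0.729) and 0.672 (0.653 to 0.691) times the autosomal mean. The interval on chromosome 9 held 2524 and 2105 positions, 9.01 and 7.52 per bin (SD 5.31 and 5.42), or 0.761 (0.732 to 0.792) and 0.659 (0.631 to 0.688) times the mean. Of the 3 arrays, that on chromosome 9 had the highest density in the mutant library. In wild type those on chromosomes 7 and 9 had overlapping intervals.

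**Figure D1:**
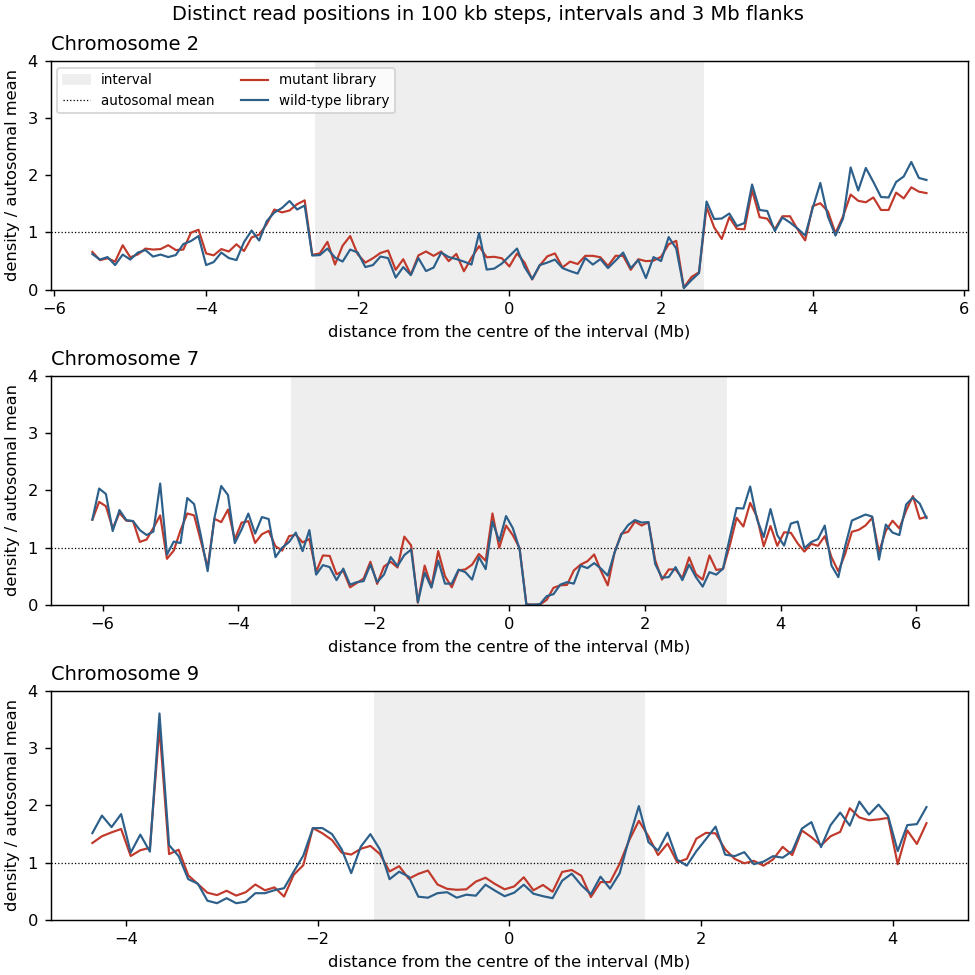
Distinct positions in 100 kb steps over each interval (grey) and its 3 Mb flanks, as a multiple of the library's autosomal mean (y axis, dotted line at 1), against the distance from the centre of the interval in Mb (x axis). In the interval on chromosome 2 all 51 steps lay below the mean in both libraries, while on chromosome 7 the density rose above the mean in 10 of 64 steps.

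The pooled flanks of each array were denser than the autosomal mean. Over the 3 Mb on each side, with both sides pooled, the mean bin held 1.10 to 1.29 times the autosomal mean in the mutant library and 1.16 to 1.38 times in the wild-type library. The left flank of chromosome 2 was an exception, at 0.847 (mutant) and 0.798 (wild type) times the autosomal mean. Against the pooled flanks the interval on chromosome 2 lay at 0.486 (0.466 to 0.506) in the mutant library and 0.411 (0.393 to 0.429) in the wild-type library. The interval on chromosome 7 lay at 0.551 (0.532 to 0.570) and 0.485 (0.469 to 0.502), and that on chromosome 9 at 0.624 (0.597 to 0.652) and 0.518 (0.494 to 0.544). The values of chromosomes 2 and 9 rest on the flank taken. Chromosome 2 stood at 0.633 and 0.597 of its left flank and at 0.394 and 0.313 of its right one. Chromosome 9 stood at 0.711 and 0.617 with 1.5 Mb on each side. Few stretches of the autosomes were as depleted. Of 2243 autosomal windows of 5.1 Mb in steps of 1 Mb, 1.16% (mutant) and 0.981% (wild type) were at or below the value of chromosome 2. For the 6.4 Mb of chromosome 7 these shares were 1.72% and 1.22% of 2213 windows, and for the 2.8 Mb of chromosome 9 they were 3.8% and 2.71% of 2290. These windows overlap, and some hold almost no reads.

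At 4 of the 6 borders the density dropped within 500 kb. In the 500 kb before the array of chromosome 2 the mutant and wild-type libraries held 15.2 and 14.7 positions per bin, and in the first 500 kb inside they held 8.56 and 7.02. At its other end they held 5.22 and 4.84 inside and 13.6 and 14.8 outside. At the far end of the array of chromosome 7 the values were 7.26 and 5.76 inside against 17.2 and 18.5 outside. At the start of the array of chromosome 9 they were 14.8 and 14.4 outside against 10.5 and 8.98 inside. At the remaining borders the steps were small. The first 500 kb of the interval on chromosome 7 held 11.6 and 10.8 against 13.5 and 13.6 outside, and the last 500 kb of that on chromosome 9 held 12.8 and 12.6 against 14.2 and 13.9. Those last 500 kb thus lay above the autosomal means of 11.8 and 11.4.

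Within the arrays the density was uneven in the same places in both libraries. Inside the interval on chromosome 7 an island at chr7:112700001-112900000 held 1.30 and 1.45 times the autosomal mean, and a longer one at chr7:114400001-114900000 held 1.36 and 1.4 times. The last 200 kb of the interval on chromosome 9, chr9:40000001-40200000, held 1.56 and 1.71 times the mean. Nothing of this kind was seen on chromosome 2, where no step of 100 kb reached the mean in both libraries. Whether receptor genes lie in the dense parts on chromosomes 7 and 9 was not tested, since no gene was placed in a bin. Across bins the counts of the libraries had a Pearson r of 0.572 (Spearman rho 0.560) over the 510 bins of chromosome 2. On chromosome 7 r was 0.775 (0.799) over 640 bins, and on chromosome 9 it was 0.656 (0.622) over 280. The bins share base composition and the genome sequence that reads were placed on, and neighbouring bins are not independent, so these values are a description. Over the autosomal bins outside the arrays r was 0.786.

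The arrays held relatively more of the mutant library than of the wild-type library. After scaling to the positions on chromosomes 1 to 19, the mutant to wild-type ratio was 1.13 (1.07 to 1.19) on chromosome 2, 1.06 (1.02 to 1.10) on chromosome 7 and 1.16 (1.09 to 1.23) on chromosome 9. Over all 3 it was 1.10 (1.07 to 1.13), from 11140 mutant and 9782 wild-type positions. The whole chromosomes 2, 7 and 9 lay slightly on the other side of 1, at 0.989, 0.978 and 0.985.

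The flanks also went the other way, except for the sparse left flank of chromosome 2. That flank had a ratio of 1.06 (1.01 to 1.12), and the right one had 0.896 (0.862 to 0.932). On chromosome 7 the flanks stood at 0.928 (0.892 to 0.967) and 0.933 (0.896 to 0.973), and on chromosome 9 at 0.971 (0.928 to 1.02) and 0.951 (0.914 to 0.990). Relative to both flanks together, the arrays were therefore higher in the mutant library by a factor of 1.18 (1.11 to 1.25) on chromosome 2, 1.13 (1.08 to 1.19) on chromosome 7 and 1.2 (1.13 to 1.29) on chromosome 9, with normal 95% intervals on the log scale.

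Autosomal bins that were as sparse showed a similar tilt. The ratio of all autosomal 10 kb bins outside the arrays with 12 positions in the libraries together was 1.14, with 24 it was 1.04 and with 40 it was 0.952. When each bin of an array was given the ratio of autosomal bins with the same summed count, the arrays would stand at 1.09, 1.03 and 1.05 on chromosomes 2, 7 and 9. The observed ratios exceeded these by factors of 1.04 (0.984 to 1.09), 1.02 (0.983 to 1.06) and 1.10 (1.04 to 1.17). The excess was thus not distinguishable from counting error on chromosomes 2 and 7, and it lay beyond it on chromosome 9. With equal density judged in bins of 1000 kb the factors were 1.01 (0.964 to 1.07) on chromosome 2, 0.949 (0.913 to 0.987) on chromosome 7 and 1.05 (0.994 to 1.12) on chromosome 9. On that scale chromosome 7 lay below its equals, and the interval for chromosome 9 included 1.

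**Figure D2:**
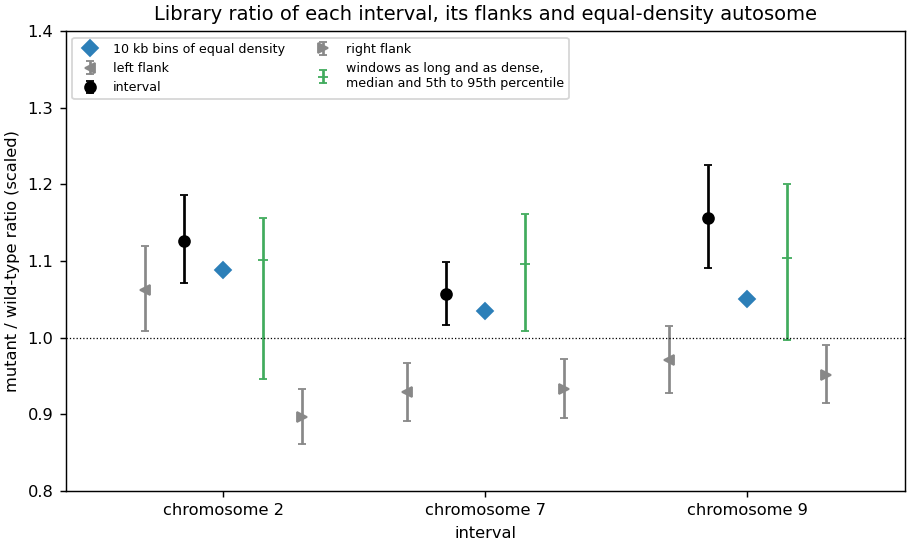
Scaled mutant to wild-type ratio (y axis) of each interval and its left and right 3 Mb flanks, with exact 95% intervals, beside the ratio of autosomal 10 kb bins of equal density (diamonds) and the median, 5th and 95th percentile of autosomal windows as long and within 10% as dense (green). The intervals at 1.13, 1.06 and 1.16 lie above 1 and inside the range of the like windows.

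Counting error is not the only spread in these ratios. Autosomal windows as long as each array and within 10% of its summed positions had a median ratio of 1.10 in each of the 3 cases. For chromosome 2 the 27 such windows ran from 0.946 to 1.16 between their 5th and 95th percentiles, and 29.6% were at or above the array. For chromosome 7 the 300 windows ran from 1.01 to 1.16, and 82.7% were at or above it. For chromosome 9 the 321 windows ran from 0.997 to 1.2, and 18.4% were at or above it. No array stood outside the 5th to 95th percentile of equally dense windows.

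Of 27 full segments of 500 kb, 23 (85.2%) had a ratio above 1, against 56.4% of autosomal windows of that length outside the arrays. For 9 of them (33.3%) the interval lay wholly above 1, against 15.5% of those windows, and for 0 it lay wholly below 1, against 12.1%. Equally dense autosomal windows came closer. Averaged over the 27 segments, 85.1% of windows within 10% of the same summed count had a ratio above 1, 25.1% had an interval wholly above 1 and 0.522% one wholly below. Many ratios above 1 were thus also seen outside the arrays at this density. Against autosomal 500 kb windows within 10% of the same summed count, 14 of the 27 lay above the median of their equals and 13 did not. Above the 95th percentile of their equals lay 3 segments, and 1 lay below the 5th.

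On chromosome 2 the highest was chr2:86200001-86700000 with 285 mutant and 198 wild-type positions, a ratio of 1.39 (1.15 to 1.67). The lowest was chr2:87700001-88200000 with 250 and 264, a ratio of 0.913 (0.765 to 1.09). On chromosome 7 the ratios of full segments ran from 0.923 (0.819 to 1.04) at chr7:112600001-113100000, which holds the first dense island, to 1.17 (1.0 to 1.36) at chr7:113600001-114100000. On chromosome 9 they ran from 1.06 (0.919 to 1.23) at chr9:39400001-39900000 to 1.43 (1.21 to 1.68) at chr9:37900001-38400000. The last held 364 mutant and 246 wild-type positions, and none of its 285 equals on the autosomes reached its ratio. It holds bins 7 to 13 of a 130 kb stretch described below, which was chosen for a high mutant count. Without them it held 287 and 217, a ratio of 1.27 (1.07 to 1.53).

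**Figure D3:**
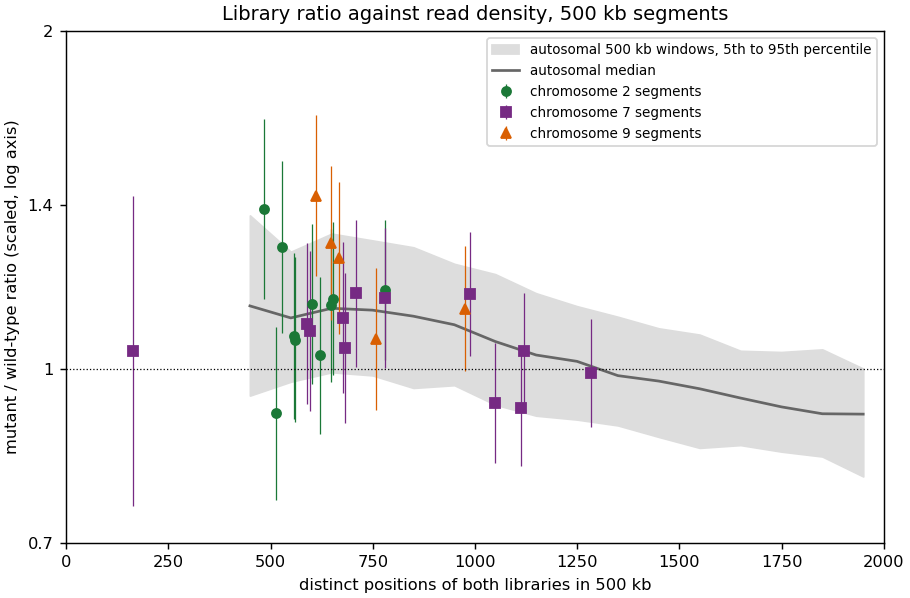
Scaled mutant to wild-type ratio (y axis, log scale) of the full 500 kb segments of each interval with exact 95% intervals, against the distinct positions of both libraries in the segment (x axis). The grey band and line give the 5th to 95th percentile and the median of autosomal 500 kb windows in classes of 100 positions. Most segments lie inside the band, and 23 of 27 lie above a ratio of 1.

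A copy-like difference between the libraries was defined as a 1.5-fold or larger change over a 50 kb window, with an interval, widened for all windows tested, that excludes 1. Over the autosomes 0.00944% of 232952 windows were called higher and 0.0296% lower in the mutant library. In the arrays 0 of 1333 windows were called in either direction. The median array window held 66.5 positions in the libraries together, so only large differences could have been called. Windows of 30 kb also gave 0 calls, against 0.00871% higher and 0.0157% lower over the autosomes. So did a 2-fold rule (0.00901% and 0.0249%) and every aligned read counted (0.0133% and 0.0334%). With windows of 100 kb, where the autosomal shares were 0.0213% higher and 0.0396% lower, 4 of 1357 array windows were called higher and 0 lower. All 4 overlap and lie on chromosome 9, in 1 stretch of 130 kb at chr9:37840001-37970000.

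This stretch held 139 mutant and 53 wild-type positions, a ratio of 2.53 (1.83 to 3.54). The mutant library held 6, 9, 19, 12, 9, 7, 6, 7, 9, 15, 12, 9 and 19 positions in its 13 bins of 10 kb, in order. The wild-type library held 1, 7, 6, 1, 5, 4, 1, 2, 3, 5, 5, 2 and 11. The scaled mutant count was the higher in 13 of 13 bins, although the ranges of the bins overlap. The fullest 100 kb within it, chr9:37860001-37960000, held 105 and 34 positions, a ratio of 2.98 with an interval widened for all autosomal windows of 1.12 to 9.49. The stretch was chosen on these same counts, and the narrower interval does not allow for that choice.

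**Figure D4:**
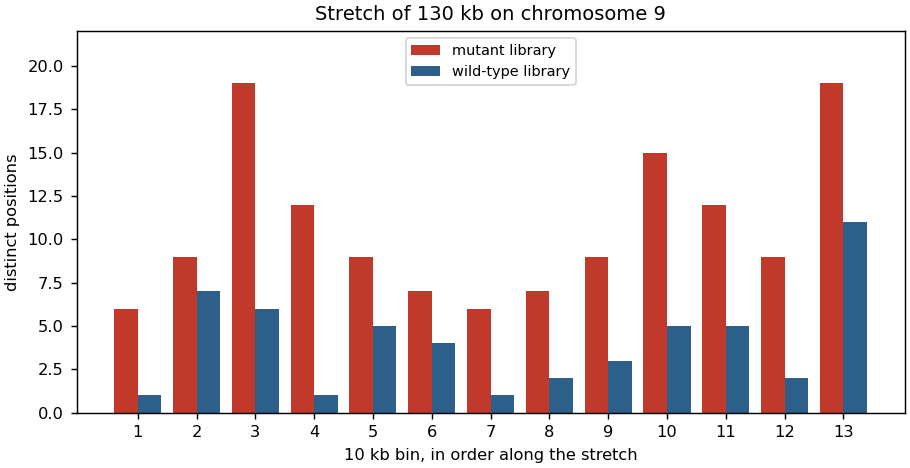
Distinct positions (y axis) in each of the 13 bins of 10 kb, in order along the 130 kb stretch on chromosome 9 (x axis), in the mutant and the wild-type library. Mutant bins hold 6 to 19 positions and wild-type bins 1 to 11.

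In this stretch the mean bin held 10.7 mutant and 4.08 wild-type positions. In the 300 kb before it the values were 9.63 and 8.5, and in the 300 kb after it 6.9 and 5.2. A high mutant and a low wild-type count were what the stretch was chosen for, so its distance from its surroundings is a description. In the 300 kb before it the ratio of the libraries was 1.09 (0.920 to 1.30), and in the 300 kb after it 1.28 (1.03 to 1.58). With every aligned read counted, 150 and 68 reads gave a ratio of 2.21, and 1 window of 100 kb was called higher, against 0.0302% of autosomal windows (0 lower, against 0.0425%). Without the stretch the ratio of the whole array on chromosome 9 fell from 1.16 to 1.12 (1.06 to 1.19), and its excess over bins of equal density from 1.10 to 1.07 (1.01 to 1.13). Whether the stretch differs in copy number between the animals was not tested.

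The highest and lowest 50 kb windows of each array were compatible with a ratio of 1 once all windows were allowed for. On chromosome 2 the highest was chr2:89550001-89600000 with 34 mutant and 10 wild-type positions, a ratio of 3.28 (1.58 to 7.44, widened 0.584 to 37.6). The lowest was chr2:87150001-87200000 with 19 and 41, a ratio of 0.447 (0.245 to 0.787, widened 0.0833 to 1.82). On chromosome 7 they were chr7:112220001-112270000 at 2.52, from 34 and 13 positions, and chr7:114220001-114270000 at 0.551, from 12 and 21. The widened intervals of these 4 windows all include 1.

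With the unwidened 95% interval, 91 of 1333 windows of 50 kb (6.83%) were past 1.5-fold higher, against 3.28% of autosomal windows, and 7 (0.525%) lower, against 1.37%. Windows outside the arrays with the same summed positions would give 5.04% higher and 0.895% lower. On chromosome 9, 33 of 276 windows (12%) were higher, against 5.23% at equal positions, and on chromosome 2, 38 of 478 (7.95%), against 5.50%. On chromosome 7, 20 of 579 (3.45%) were higher, against 4.58%. The difference between the arrays was not tested. On chromosome 9, 16 of the 17 tested windows that overlap the 130 kb stretch were higher, and of the other 259 windows 17 (6.56%) were. With 100 kb windows, 98 of 1357 (7.22%) were higher, against 2.08% of autosomal windows and 5.36% at equal positions, and 2 (0.147%) lower, against 0.235% and 0.306%. Neighbouring windows share bins, so these counts are not counts of separate places.

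Single bins of 10 kb with 20 or more positions were tilted in the same direction. Of 367 such bins, 30 (8.17%) were 2-fold or more higher in the mutant library, against 4.45% of autosomal bins and 5.66% of those with equal counts. Another 10 (2.72%) were 2-fold or more lower, against 3.96% and 4.34%. The most extreme higher bins were chr7:112100001-112110000, with 17 mutant and 4 wild-type positions (ratio 4.10, 1.34 to 16.7), chr2:86630001-86640000, with 17 and 5 (3.28, 1.16 to 11.4), and chr9:37860001-37870000, with 19 and 6 (3.05, 1.17 to 9.34). The last lies in the stretch described above. The most extreme lower bins were chr7:111080001-111090000, with 5 and 17 (0.283, 0.0818 to 0.801), chr9:39720001-39730000, with 7 and 16 (0.422, 0.147 to 1.08), and chr2:87040001-87050000, with 7 and 15 (0.450, 0.155 to 1.17). Between bins the ratio varied little more than counting allows. The variance of the mutant share was 1.08 times its binomial value on chromosome 2, 1.04 times on chromosome 7 and 1.11 times on chromosome 9, against 1.09 times over the autosomes.

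A difference from the reference genome that both libraries carry leaves no trace in their ratio, so bins high or empty in both were counted as well. Assembly gaps and sequence where reads cannot be placed also leave bins empty in both libraries. Neither could be computed for these intervals, so the counts do not show a deletion in the animals. Bins at 2 or more times the autosomal mean in both libraries were rare, with 4 of 1430 (0.280%), against 1.75% of all autosomal bins. Of these, 3 were on chromosome 7 and 1 on chromosome 9. In the flanks they made up 2.5%, 4.5% and 3.33% of the bins on chromosomes 2, 7 and 9. The arrays stood at 0.476 to 0.761 times the autosomal mean, so a 2-fold gain from their mean density would not reach this cutoff. The counts of high bins therefore do not show whether gains shared by both libraries are lacking. The fullest bin of each array was chr2:90290001-90300000 with 28 mutant and 22 wild-type positions, chr7:112710001-112720000 with 30 and 32, and chr9:40110001-40120000 with 32 and 34. None reached 3 times the autosomal mean in either library, and the first and last lie within 100 kb of a border of their interval. No position in the arrays carried more than 8 reads.

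**Figure D5:**
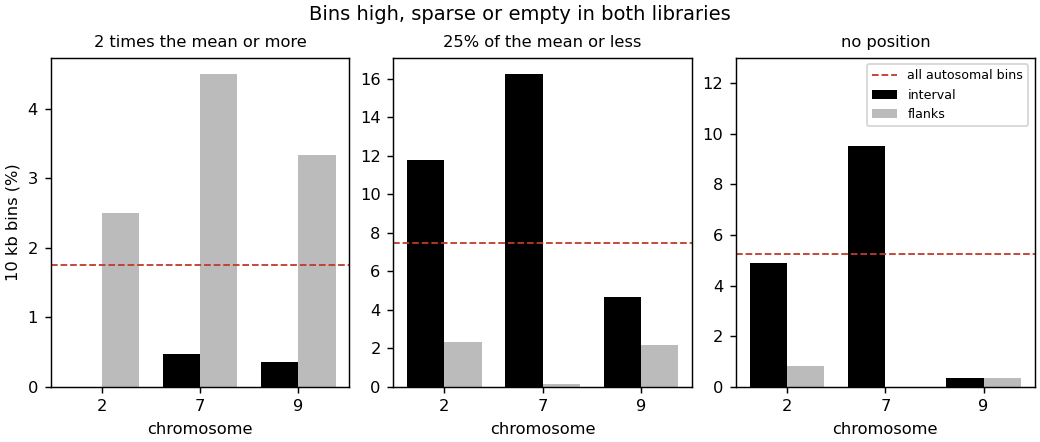
Percent of 10 kb bins (y axis) at 2 or more times the autosomal mean, at 25% of it or less, and with no position, in each case in both libraries, for the interval and the flanks on chromosomes 2, 7 and 9 (x axis). The dashed line gives all autosomal bins. High bins are fewer in the intervals than in the flanks, and the interval on chromosome 7 has the largest share of empty bins, 9.53%.

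Empty bins were most frequent in the array on chromosome 7. It had 61 bins of 640 (9.53%) without a position in either library, the array on chromosome 2 had 25 of 510 (4.90%) and that on chromosome 9 had 1 of 280 (0.357%). The autosomal share was 5.25%, or 3.02% without the first 3 Mb of each chromosome. In the flanks of the 3 arrays the shares were 0.833%, 0% and 0.333%. Bins at 25% of the autosomal mean or less in both libraries, empty ones included, numbered 177 of 1430 (12.4%), against 7.48% of autosomal bins. They were 104 on chromosome 7, 60 on chromosome 2 and 13 on chromosome 9. Without the first 3 Mb of each chromosome the autosomal share of such bins was 5.30%. Of the empty bins on chromosome 7, 43 lay within 500 kb, at chr7:112980001-113480000, where the remaining 7 bins held 25 mutant and 30 wild-type positions.

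The longest empty run there was chr7:113070001-113260000, 190 kb with 0 positions in each library. Whether it is a gap of the assembly was not tested. At the mean density of the array it would have held 160 mutant and 146 wild-type positions, and a count of 0 allows up to 3 positions, or 1.88% and 2.06% of that density. On chromosome 2 the longest runs were chr2:90150001-90230000 (80 kb) and chr2:90000001-90070000 (70 kb), both near the end of the array. The single empty bin of chromosome 9 was chr9:38190001-38200000. Without the empty bins the density over the flanks on chromosome 7 was 0.609 and 0.536 in the mutant and wild-type libraries, and on chromosome 2 it was 0.506 and 0.429, so both arrays stayed sparse.

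Clustering of reads at the fragment scale was compared with that over the autosomes. Reads on opposite strands 150 to 280 bp apart were 1.63 times (1.43 to 1.87) as frequent as those 500 to 600 bp apart in the mutant library and 1.59 times (1.38 to 1.83) in the wild-type library. Over the autosomes the values were 1.49 and 1.55. Pairs on the same strand 100 to 200 bp apart were 1.26 times (1.14 to 1.4) and 1.24 times (1.10 to 1.39) as frequent, against 1.22 and 1.23. With this reference distance the autosomal values lay within the intervals of the arrays. With pairs 1000 to 1100 bp apart as reference, the opposite-strand value of the arrays was 1.59 (1.39 to 1.83) in the mutant library, against 1.57 over the autosomes. In the wild-type library it was 1.99 (1.71 to 2.33), and the autosomal value of 1.66 lay outside that interval. In the flanks, with the reference of 500 to 600 bp, the values were 3.71 and 3.6 on opposite strands and 4.08 and 3.37 on the same strand. Without the left flank of chromosome 9 they were 1.42 and 1.51, and 1.13 and 1.11. That flank holds a step of 100 kb at 3.36 (mutant) and 3.61 (wild type) times the autosomal mean. A pair of reads can recur in several pairs, so these intervals are too narrow.

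The share of reads beyond the first at a position was 8.58%, 8.30% and 8.48% on chromosomes 2, 7 and 9 in the mutant library, where the whole library had 8.23%. In the wild-type library it was 11.9%, 11.8% and 11.5%, where the whole library had 11.6%. The strands were balanced, with 49.6% to 51.0% of positions on the plus strand in the 6 combinations of array and library, and all 6 intervals included 50%.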

How the data were processed

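Immunoprecipitated DNA of 1 mutant and 1 wild-type library was sequenced. Bowtie placed the reads, per the submitters' processing notes, which name no version. Its settings and any filter on multiply placed reads: not given in the sources used here. The authors deposited 1 aligned read per line. Their score is 255 on every line of both deposited files and was not used. All 3273273 and 3305140 reads span 36 bp.

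Reads were reduced to distinct positions (2927228 and 2821498 on chromosomes 1 to 19), counted in 10 kb bins and scaled to these sums. Ratios carry Clopper-Pearson intervals of the split of counts, and densities over the autosomal mean Poisson intervals. Ratios relative to the flanks carry a normal 95% interval on the log scale. Bins of equal density have the same summed positions, with all of 60 or more pooled; larger bins were matched within 5%. Copy-like calls, with 20 or more positions per window in steps of 10 kb, used Bonferroni-widened intervals.

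Named, by rule, were the fullest bin, the longest empty run, extreme bins, windows and segments, and called runs. Intervals, lists and rules were chosen with earlier results of these data known; dense islands, borders and the 130 kb stretch were added after the values were seen. Tools were matplotlib 3.10.9, pandas 2.3.3, scipy 1.17.1 and numpy 2.4.6 in Python 3.11.15.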

Additional observations from a re-analysis of the deposited data

How the results depend on the processing

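Under all alternatives run, every density stayed below 1 and every library ratio of an array above 1, but the ratio over equal-density bins on chromosome 7 moved to the other side of 1 with bins of 1000 kb. With median bins the density over the flanks was 0.462 for chromosome 2 in the mutant library and 0.467 for chromosome 7 in the wild-type library. The density over the autosomal median was 0.5, 0.667 and 0.708 for the mutant on chromosomes 2, 7 and 9, and 0.455 and 0.636 for the wild type on chromosomes 2 and 7. Flanks of 1.5 Mb gave 0.572 for chromosome 7 in the mutant library and 0.711 and 0.617 for chromosome 9. With every aligned read chromosome 9 stood at 0.573 and 0.480 of its flanks. Leaving out empty bins, chosen after the data were seen, gave 0.506 for chromosome 2 in the mutant library and 0.609 and 0.536 for chromosome 7. Scaled to the flanks the ratio of chromosome 7 was 1.13, and its ratio over equal-density bins of 1000 kb was 0.949. Copy-like windows, 0 in either direction with 50 kb, numbered 4 higher with 100 kb, 1 higher with 100 kb and every aligned read, 91 higher and 7 lower with the unwidened interval at 50 kb, and 98 higher and 2 lower with it at 100 kb. Windows of 30 kb, the 2-fold rule and every aligned read at 50 kb gave 0. With pairs 1000 to 1100 bp apart as reference, opposite-strand clustering in the wild-type library was 1.99. What caused these shifts was not tested. No paired analysis was possible because each genotype has 1 library, and for that reason none was left out. Depth limits the calls: the median 50 kb window of the arrays held 66.5 positions.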
